A study of Mus musculus with 5 samples.

Results

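The 10 genes described here encode chains of the integrins that leukocytes carry. They are Itgae, which encodes the αE chain known as CD103, Itgb7, Itga4, Itgb1, Itgal, Itgb2, Itga6, Itgav, Itgb3 and Itga1. They were listed by gene symbol, with earlier results of these data known, and all 10 had a row among the 35976 genes of each count file. RNA had been sequenced from flow-sorted mature CD8 single-positive (SP) thymocytes of mice, the CD8-lineage cells that are close to leaving the thymus. Of the 5 libraries, 3 came from Runx3 +/WRPW mice, which have 1 copy of a Runx3 allele named WRPW beside a wild-type copy, and 2 from wild-type Runx3 +/+ mice. No treatment or time course was part of the design, and the labels give no age, sex or strain. Nothing in the labels ties the libraries to different mice, and the p-values therefore speak only of variation among these libraries, which could be technical.

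An integrin at the cell surface is a pair of an α and a β chain, and the pair decides which ligand is bound. The β7 chain pairs with αE, whose ligand is the epithelial adhesion protein E-cadherin, or with α4, which binds the gut vessel protein MAdCAM-1 and VCAM-1. The β1 chain pairs with many α chains, among them α4 (VCAM-1 and fibronectin), α6 (laminins), αv and α1 (collagens), while αL with β2 makes LFA-1, the receptor for ICAM proteins on T cells. CD103 marks intraepithelial T cells and CD8-lineage thymocytes, and in mouse CD8 T cells its expression is known to need Runx3.

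Total counts ran from 15715242 to 43758550 in the Runx3 +/WRPW libraries and from 21635675 to 25526389 in the Runx3 +/+ libraries. Runx3 +/WRPW library 2 stood apart, with a count at 27414 genes, against 17237 to 18967 genes in the other 4 libraries, and results that rest on it are also given without it. Markers of T cells and the CD8 lineage, 8 of 8, were present in every library at a summed level of 6564 to 7281 CPM (counts scaled to library size, with factors from the trimmed mean of M values) in Runx3 +/WRPW and 7762 to 7772 CPM in Runx3 +/+. Of these, Cd3d and Cd247 were lower in Runx3 +/WRPW (edgeR adjusted p = 0.0390 and 0.0278), and the others did not pass. The CD4 SP markers Cd4, Zbtb7b and Cd40lg summed to 0.690 to 0.891 CPM in Runx3 +/WRPW and 1.17 to 6.35 CPM in Runx3 +/+. Most of the upper Runx3 +/+ value was Cd4 in library 2, at 5.36 CPM there and 0.467 CPM in library 1. Runx3 transcripts stood at 394, 341 and 422 CPM in Runx3 +/WRPW and 273 and 357 CPM in Runx3 +/+. Gene-level counts cannot separate the WRPW transcripts from the wild-type ones.

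Integrin chain genes moved in both directions between the genotypes. In Runx3 +/WRPW cells, Itgae, Itgb7 and Itgb2 fell and Itga4, Itgb1 and Itga6 rose, while Itgal, Itgav, Itgb3 and Itga1 did not pass the test. All 10 passed the low-count filter. The test was edgeR's quasi-likelihood test across 13666 genes, and called genes had an adjusted p (Benjamini-Hochberg) below 0.05. Over all genes tested 13.6% were called, 6.24% as higher and 7.33% as lower, against 6 of the 10 chain genes, a list drawn up with such results known. CPM values of the genotypes did not overlap for the same 6 genes, which was also so for 48.5% of all genes tested. The median log2 fold change was 0.04 over the 10 genes and 0.02 over all genes tested. Leaving out 1 library at a time, only Itgae and Itgb7 were called each time. Leaving out Runx3 +/WRPW library 1, 2 or 3 gave 4, 5 and 5 called chain genes. In the same runs 5.71%, 10.8% and 6.97% of all genes tested were called, so calls became fewer over all genes too. That was also so without either Runx3 +/+ library, which leaves 1 library in that genotype.

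**Figure D1:**
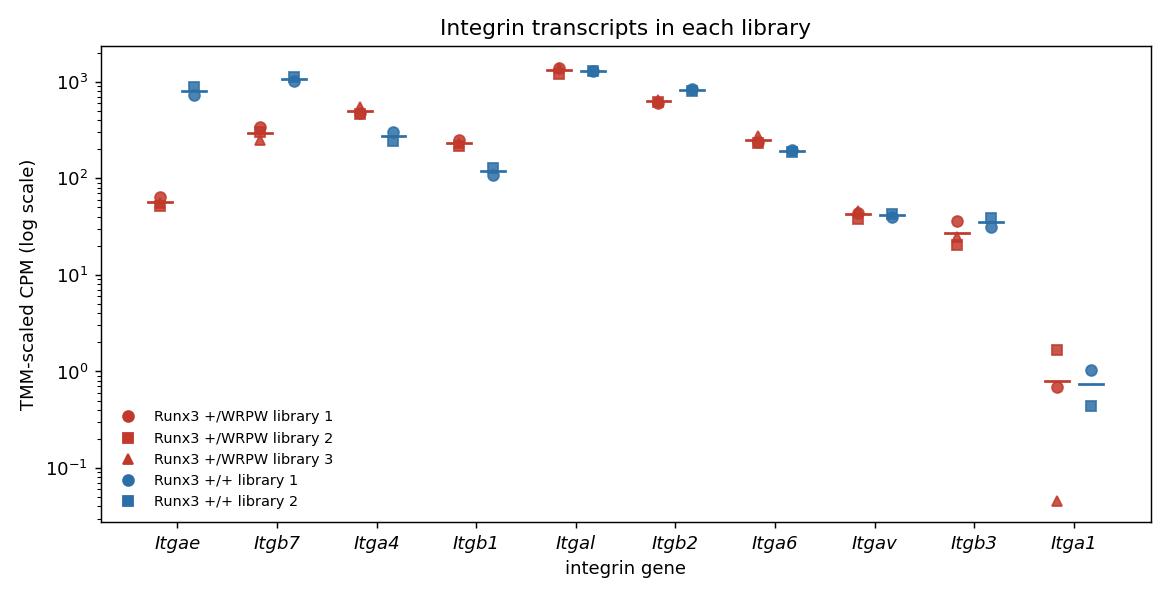
Level of each integrin gene in every library, as CPM scaled by the trimmed mean of M values, on a log axis. Points are libraries (Runx3 +/WRPW in red, left; Runx3 +/+ in blue, right) and bars are the means of a genotype; Itgae lies at 51.2 to 64.7 CPM in Runx3 +/WRPW and at 725 and 874 CPM in Runx3 +/+.

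Itgae (chromosome 11, 73090505 to 73147449, mm10, plus strand) showed the largest change of the 10 genes. Its level was 64.7, 51.2 and 55.8 CPM in Runx3 +/WRPW libraries 1, 2 and 3, against 725 and 874 CPM in Runx3 +/+ libraries 1 and 2. The Runx3 +/WRPW libraries lay close together and every one was far below both Runx3 +/+ libraries. Behind these levels were 2829, 822 and 1214 counts in Runx3 +/WRPW and 15520 and 21870 counts in Runx3 +/+. The log2 fold change was -3.80 ± 0.13 (SE; 95% interval -4.12 to -3.48), or 13.9-fold lower, with an adjusted p = 0.000189 in edgeR's test. It was -3.73 without Runx3 +/WRPW library 2. Ranked by log2 fold change from the lowest, Itgae stood at rank 16 of the 13666 genes tested. In bulk RNA, fewer cells that express a gene and less of its RNA per cell cannot be told apart.

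Itgb7 (chromosome 15, 102215994 to 102233405, minus strand) encodes the only β chain known to pair with αE. Its level was 341, 299.8 and 251 CPM in Runx3 +/WRPW libraries 1, 2 and 3, against 1011 and 1134 CPM in the Runx3 +/+ libraries. All Runx3 +/WRPW libraries were below both Runx3 +/+ libraries, but Itgb7 kept a much larger part of its wild-type level than Itgae. The log2 fold change was -1.85 ± 0.13 (SE; 95% interval -2.18 to -1.53), or 3.61-fold lower (edgeR adjusted p = 0.00145). Counted as the drop in mean CPM over all 35976 genes of the files, Itgb7 and Itgae had ranks 3 and 5, with differences of -775 and -742 CPM. Transcripts of this integrin pair were thus among the largest single losses of RNA in the Runx3 +/WRPW libraries.

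Genes that mark dividing cells, and some that mark regulatory T cells, a population that can also carry CD103, were lower in the same libraries. All 4 markers of dividing cells (Mki67, Top2a, Ccnb1 and Ccna2) fell, with summed levels of 67.5 to 74.9 CPM in Runx3 +/WRPW and 496 to 531 CPM in Runx3 +/+. Of 3 regulatory T cell markers, Foxp3 and Ctla4 fell. Il2ra lay the other way, at 6.45, 4.61 and 4.09 CPM in Runx3 +/WRPW and 3.78 and 3.96 CPM in Runx3 +/+, and did not pass. The 3 markers summed to 5.61 to 9.21 CPM in Runx3 +/WRPW against 13.1 to 22.2 CPM in Runx3 +/+. Immature thymocyte markers summed to 31.1 to 43.7 CPM in Runx3 +/WRPW and 49.0 to 49.7 CPM in Runx3 +/+, with 1 of 5 tested members, Dntt, lower. Most of each sum was Cd1d1, at 26.5 to 29.5 CPM in Runx3 +/WRPW and 30.6 and 31.7 CPM in Runx3 +/+, which did not pass. Arpp21 stood at 12.4 CPM in Runx3 +/WRPW library 2, against 0.846 and 0.782 CPM in libraries 1 and 3. Of 5 stroma and endothelium markers tested only Pecam1 fell, and the list without it summed to 1.69, 14.1 and 1.70 CPM in Runx3 +/WRPW against 3.64 and 3.80 CPM in Runx3 +/+. The part of these cells in the levels of Itgae and Itgb7 was not tested.

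Itga4 (chromosome 2, 79255426 to 79333114), the α chain of the gut-homing pair α4β7 and of α4β1, went the other way. It stood at 472 CPM, 463 CPM and 545 CPM in Runx3 +/WRPW libraries 1, 2 and 3, against 299 and 246 CPM in the Runx3 +/+ libraries. The genotypes did not overlap, and library 3 was the highest of the Runx3 +/WRPW libraries. The log2 fold change was 0.85 ± 0.12 (SE; 95% interval 0.57 to 1.14; edgeR adjusted p = 0.00887), or 1.81-fold higher. The call was lost without Runx3 +/+ library 1 (adjusted p = 0.0642, edgeR) or 2 (adjusted p = 0.124, edgeR).

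Itgb1 (chromosome 8, 128685654 to 128733579), the common β chain of receptors for matrix proteins and VCAM-1, rose by a like amount. It stood at 248, 216 and 230.0 CPM in Runx3 +/WRPW libraries 1, 2 and 3, against 107 and 128 CPM in the Runx3 +/+ libraries. Each Runx3 +/WRPW library was above both Runx3 +/+ libraries. The log2 fold change was 0.98 ± 0.10 (SE; 95% interval 0.72 to 1.23; edgeR adjusted p = 0.00389), or 1.97-fold higher. Without Runx3 +/+ library 1 the call was lost (adjusted p = 0.0616, edgeR).

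The promoter sequences of Itgb7, Itga4 and Itgb1 are shown because these genes encode a chain that fell and a pair of chains that rose around the same α4 and β7 partners. RefSeq (GRCm38.p6) gave windows from 250 bases before to 50 bases after the start for 5 of the 10 genes, the others being those of Itgav and Itga1. The start used for the windows of Itga4, Itgb1 and Itga1 is the end of the gene span, whereas for Itgb7 and Itgav it lies 1470 and 2094 bases inside the RefSeq span given here. Each is printed 5′ to 3′ on its gene's strand, and capitals mark matches to TGTGGT or TGCGGT, forms of the core motif of Runx proteins, on either strand.
Itgb7 chr15:102231886-102232185, minus strand: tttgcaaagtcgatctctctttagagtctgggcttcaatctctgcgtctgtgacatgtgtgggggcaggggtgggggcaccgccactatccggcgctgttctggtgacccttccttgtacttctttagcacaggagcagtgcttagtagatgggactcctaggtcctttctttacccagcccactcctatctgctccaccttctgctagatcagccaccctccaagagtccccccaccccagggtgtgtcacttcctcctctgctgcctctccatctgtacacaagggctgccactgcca
Itga4 chr2:79255176-79255475, plus strand: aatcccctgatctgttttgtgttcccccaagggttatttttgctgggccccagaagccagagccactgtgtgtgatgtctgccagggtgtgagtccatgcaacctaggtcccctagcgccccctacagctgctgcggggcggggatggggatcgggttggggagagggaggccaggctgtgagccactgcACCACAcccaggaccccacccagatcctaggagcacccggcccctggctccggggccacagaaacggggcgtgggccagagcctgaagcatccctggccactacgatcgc
Itgb1 chr8:128685404-128685703, plus strand: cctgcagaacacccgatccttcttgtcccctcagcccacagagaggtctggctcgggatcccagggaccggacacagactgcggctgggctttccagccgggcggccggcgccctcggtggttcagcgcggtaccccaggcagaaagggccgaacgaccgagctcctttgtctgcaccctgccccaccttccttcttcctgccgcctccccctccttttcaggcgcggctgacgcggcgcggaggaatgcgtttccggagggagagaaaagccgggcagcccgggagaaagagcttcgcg
Among all 32851 windows of this length, 22.4% held TGTGGT or TGCGGT on either strand, 16.8% TGTGGT and 6.45% TGCGGT. The Itga4 window held 1 match, TGTGGT on its minus strand, beginning 60 bases before the start, and the windows of Itgb7, Itgb1, Itgav and Itga1 held none. A match is only a run of letters in this window and was not tested for binding.

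LFA-1 chains were among the most abundant integrin transcripts in both genotypes, and changed little. Itgal (chromosome 7, 127296139 to 127335137), the αL chain, stood at 1403, 1213 and 1379.6 CPM in Runx3 +/WRPW libraries 1, 2 and 3, against 1303 and 1305 CPM in the Runx3 +/+ libraries. The genotypes overlapped, and the log2 difference of 0.03 ± 0.08 (SE; edgeR adjusted p = 0.846) had a 95% interval of -0.17 to 0.23. Its partner Itgb2 (chromosome 10, 77530329 to 77565708), the β2 chain, stood at 598, 623 and 655 CPM in Runx3 +/WRPW libraries 1, 2 and 3, against 839 and 808 CPM in the Runx3 +/+ libraries, with no overlap. Itgb2 fell 1.32-fold (log2 fold change -0.40 ± 0.07, SE; 95% interval -0.56 to -0.23; edgeR adjusted p = 0.0166). This call was lost with no low-count filter and without either Runx3 +/+ library or Runx3 +/WRPW library 1 (adjusted p = 0.0786, 0.135, 0.128 and 0.0853, edgeR).

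The other 4 chains changed less or were scarce. Itga6 (chromosome 2, 71786886 to 71858427), the laminin-binding α6 chain, stood at 238, 235 and 276 CPM in Runx3 +/WRPW libraries 1, 2 and 3, against 199 and 188 CPM in the Runx3 +/+ libraries. It was 1.29-fold higher (log2 fold change 0.37 ± 0.09, SE; edgeR adjusted p = 0.0493), at the edge of the threshold, and the call was lost with any 1 library left out, also without Runx3 +/WRPW library 2 (adjusted p = 0.0519, edgeR). Itgav (chromosome 2, 83722303 to 83806917), the αv chain of vitronectin and TGF-β activating receptors, stood at 44.1, 38.2 and 46.2 CPM in Runx3 +/WRPW against 39.8 and 42.8 CPM in Runx3 +/+, with a log2 difference of 0.06 (95% interval -0.19 to 0.30; edgeR adjusted p = 0.765). Its partner Itgb3 (chromosome 11, 104608000 to 104670476), the β3 chain best known from platelets, stood at 36.5, 20.3 and 24.7 CPM in Runx3 +/WRPW against 31.2 and 38.6 CPM in Runx3 +/+ (log2 difference -0.35, 95% interval -0.95 to 0.25; edgeR adjusted p = 0.407). Both genes overlapped between the genotypes. Platelet markers were low, at summed levels of 7.54 to 8.43 CPM in Runx3 +/WRPW and 7.59 to 8.73 CPM in Runx3 +/+.

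Itga1 (chromosome 13, 114958079 to 115101964), the collagen-binding α1 chain of tissue-resident T cells, was close to absent. It had 30, 27 and 1 counts in Runx3 +/WRPW libraries 1, 2 and 3 and 22 and 11 counts in the Runx3 +/+ libraries, or 0.0460 to 1.68 CPM. A floor of 3 counts lay at 0.0686 to 0.187 CPM across the libraries, and covers counting error only. The log2 difference of 0.11 had a 95% interval from -2.68 to 2.89, and it was -0.81 without Runx3 +/WRPW library 2, the library with the highest level. A difference in Itga1 was not detectable at this depth.

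**Figure D2:**
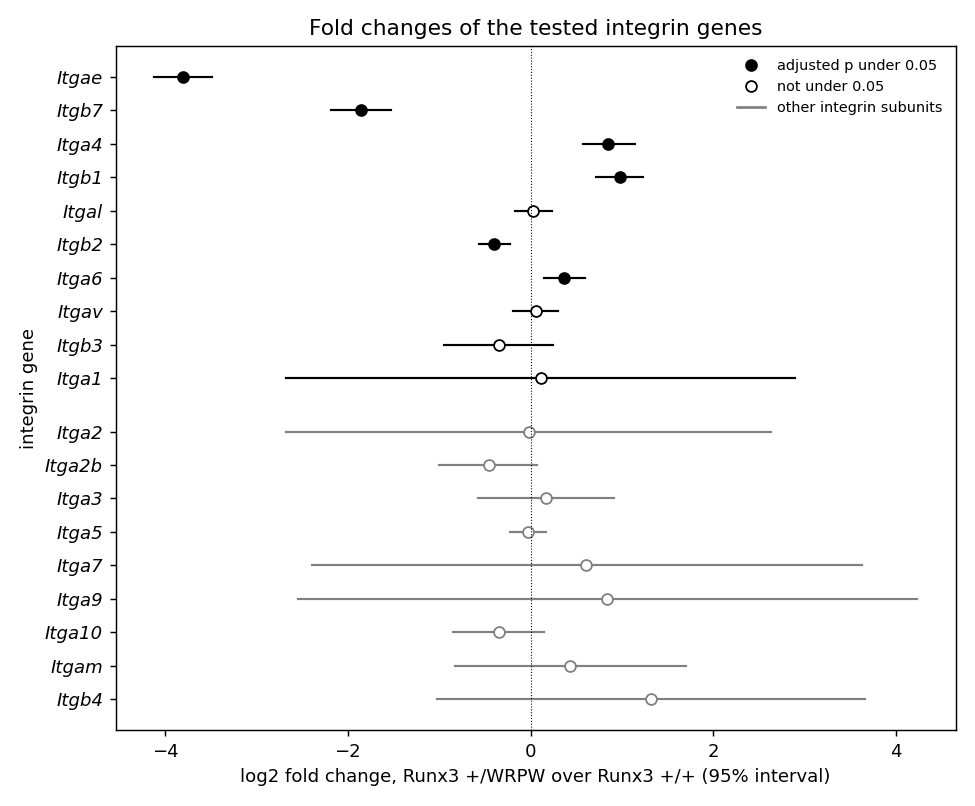
Log2 fold change of Runx3 +/WRPW over Runx3 +/+ with its 95% interval for the 10 chain genes (black) and the 9 other integrin subunits that could be tested (grey). Filled points had an adjusted p under 0.05 in edgeR's test; Itgae, at -3.80, and Itgb7, at -1.85, lie farthest to the left.

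To compare chains with each other, CPM was divided by the summed exon length of each gene. In Runx3 +/WRPW cells Itgb2 (205 ± 9.4 CPM per kb; SD, n = 3 here and in the next sentence) and Itgal (203 ± 15.7) led and did not differ beyond their spread, followed by Itgb7 (107 ± 16.3), Itgb1 (56.7 ± 3.9), Itga4 (35.3 ± 3.2) and Itga6 (27.7 ± 2.6). Itgae came next at 12.5 ± 1.5 CPM per kb, above Itgb3 (4.61 ± 1.42) and Itgav (3.99 ± 0.39), which did not differ beyond their spread, and Itga1 (0.0432 ± 0.0443). In Runx3 +/+ cells the order was Itgb7 (387 ± 31.4 CPM per kb; SD, n = 2 here and in the rest of the sentence), Itgb2 (269.8 ± 7.2), Itgal (199 ± 0.2), Itgae (175 ± 23.0), Itgb1 (28.8 ± 3.6), Itga6 (21.4 ± 0.9), Itga4 (19.5 ± 2.7), Itgb3 (5.91 ± 0.89), Itgav (3.84 ± 0.20) and Itga1 (0.0394 ± 0.0223). There Itgal and Itgae differed by about the SD of Itgae, and Itga6 and Itga4 did not differ beyond their spread. Itgae thus stood at rank 7 of 10 in Runx3 +/WRPW and at rank 4 in Runx3 +/+, while Itgb7 stood at rank 3 and at rank 1. The order of the lower chains depends on the length used. With the length of the principal transcript Itga6 was at 57.9 CPM per kb in Runx3 +/WRPW and 44.8 CPM per kb in Runx3 +/+, which is above Itga4 in both genotypes and above Itgb1 in Runx3 +/+, and Itgal (256 CPM per kb) was above Itgb2 (211 CPM per kb) in Runx3 +/WRPW.

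The make-up of the chain transcripts shifted with the fall of the αE and β7 chains. Itgae made up 4.83%, 4.32% and 4.12% of the summed level per kb of the 6 α chains in Runx3 +/WRPW libraries 1, 2 and 3, against 39.2% and 44.2% in the Runx3 +/+ libraries. Itgb7 made up 31.9%, 29.4% and 24.7% of the summed level of the 4 β chains in Runx3 +/WRPW, against 54.3% and 57.5% in Runx3 +/+. The share of Itgb1 was 14.4% to 15.8% in Runx3 +/WRPW and 3.92% and 4.4% in Runx3 +/+, and that of Itgb2 was 50.8% to 58.7% in Runx3 +/WRPW and 40.9% and 37.2% in Runx3 +/+. Shares add to the whole, so a fall in a large member raises the others: Itgal made up 70.9% to 73.1% of the α level in Runx3 +/WRPW and 49.1% and 46.0% in Runx3 +/+, although its CPM did not pass the test. Summed over the 4 β chains the level was 366 to 386 CPM per kb in Runx3 +/WRPW and 671 and 712 CPM per kb in Runx3 +/+.

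**Figure D3:**
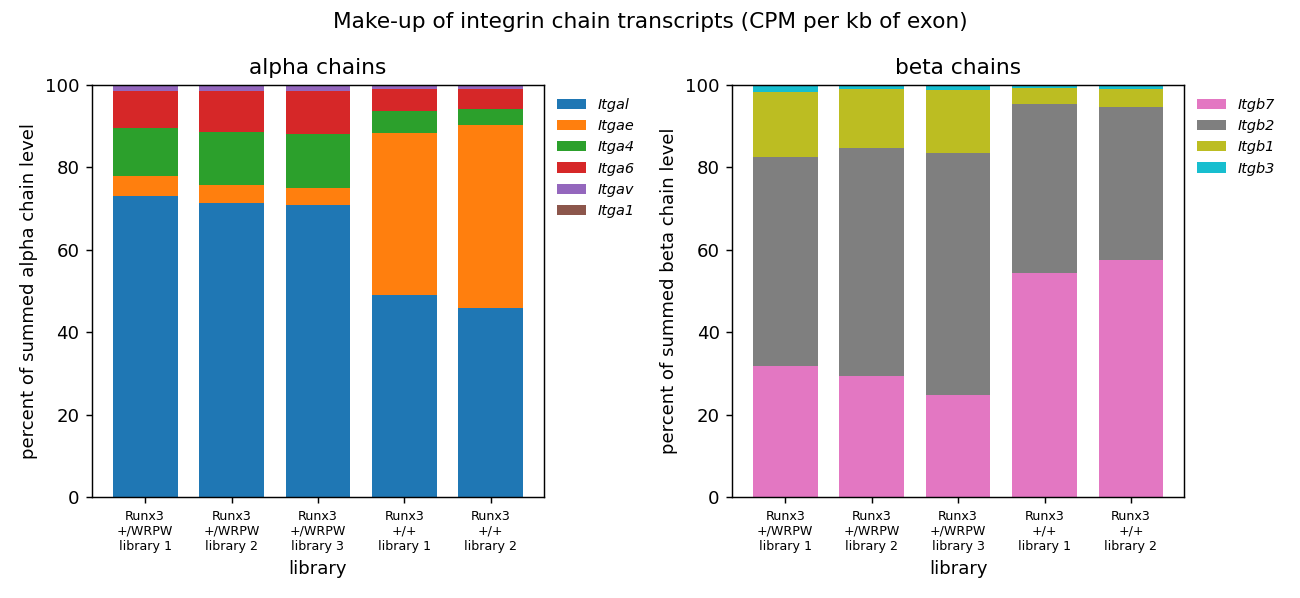
Share of each gene in the summed level (CPM per kb of exon) of the 6 α chains (left) and 4 β chains (right), as percent, for each library. Itgae fills 4.12% to 4.83% of the α bar in Runx3 +/WRPW and 39.2% and 44.2% in Runx3 +/+; Itgb7 fills 24.7% to 31.9% of the β bar in Runx3 +/WRPW and 54.3% and 57.5% in Runx3 +/+.

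Ratios of α to β chain transcripts were taken within each library, where scaling between libraries has no part. For the αEβ7 pair, Itgae per kb was 0.115, 0.103 and 0.135 of Itgb7 in Runx3 +/WRPW libraries 1, 2 and 3, against 0.434 and 0.466 in the Runx3 +/+ libraries. The mean log2 ratio was -3.10 ± 0.19 (SD, n = 3) in Runx3 +/WRPW and -1.15 ± 0.07 (SD, n = 2) in Runx3 +/+, so the α chain lost 3.85-fold more than its β partner (exact two-sided permutation test, p = 0.10, adjusted p = 0.16 over 8 pairs). With 3 libraries against 2, p = 0.10 is the smallest value the exact test can give, and no pair can reach 0.05. For α4β7, Itga4 per kb was 0.275, 0.306 and 0.431 of Itgb7 in Runx3 +/WRPW, against 0.0587 and 0.0430 in Runx3 +/+, a ratio 6.58-fold higher (exact permutation p = 0.10, adjusted p = 0.16). Of the transcripts for the α partners of β7, Itgae was 29.5%, 25.2% and 23.8% of the Itgae and Itga4 sum per kb in Runx3 +/WRPW and 88.1% and 91.5% in Runx3 +/+. In Runx3 +/WRPW the larger α partner of β7 by transcript level was therefore Itga4, and in Runx3 +/+ it was Itgae.

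The α4β1 chains rose together, and their ratio did not separate the genotypes. Itga4 per kb was 0.555, 0.624 and 0.692 of Itgb1 in Runx3 +/WRPW, against 0.814 and 0.562 in Runx3 +/+ (difference in mean log2 ratio -0.12; exact permutation p = 0.60, adjusted p = 0.60). For LFA-1 the ratio of Itgal to Itgb2 was 1.09, 0.906 and 0.978 in Runx3 +/WRPW and 0.722 and 0.751 in Runx3 +/+, or 1.34-fold higher without overlap. Itga6 and Itgav lagged behind Itgb1, with differences in mean log2 ratio of -0.61 and -0.93 and no overlap (exact permutation p = 0.10 and adjusted p = 0.16 for these and the LFA-1 pair). The ratio of Itgav to Itgb3 overlapped between the genotypes (0.664, 1.03 and 1.03 in Runx3 +/WRPW, 0.700 and 0.608 in Runx3 +/+; exact permutation p = 0.30, adjusted p = 0.40). That of Itga1 to Itgb1, which rests on the few counts of Itga1, overlapped too (difference in mean log2 ratio -1.65; exact permutation p = 0.40, adjusted p = 0.457).

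**Figure D4:**
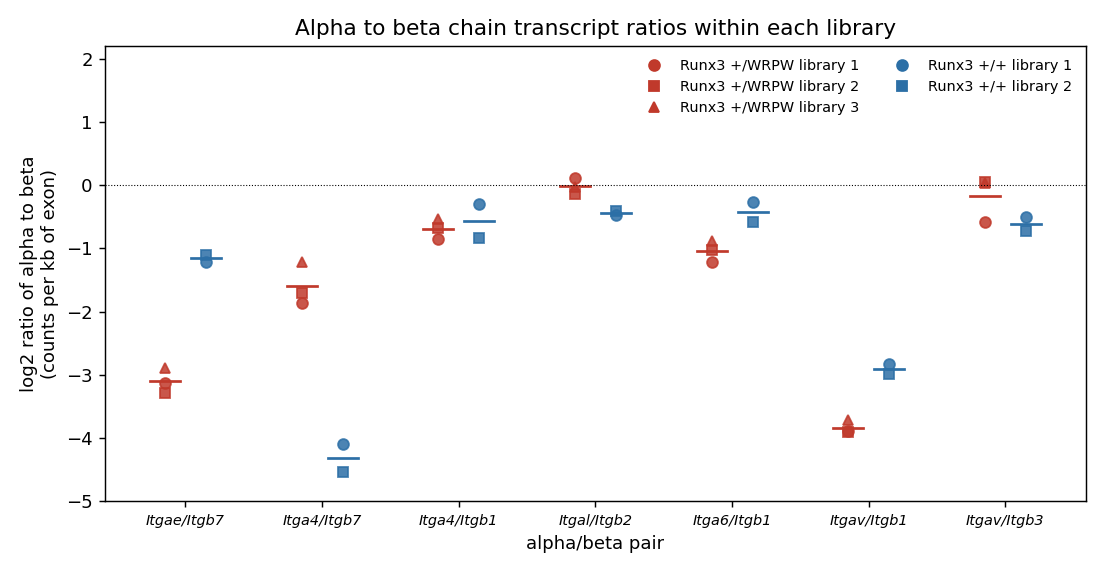
Log2 ratio of α to β chain transcripts (counts per kb of exon, 0.5 counts added) within each library, for 7 pairs; that of Itga1 and Itgb1 is left out because of its few counts. Points are libraries and bars are means; the Itgae/Itgb7 ratio averages -3.10 in Runx3 +/WRPW and -1.15 in Runx3 +/+, and the Itga4/Itgb7 ratio -1.60 in Runx3 +/WRPW and -4.31 in Runx3 +/+.

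Of the 16 integrin subunits outside this group, 9 could be tested, and edgeR and DESeq2 each called 0 of them. Over all genes edgeR called 13.6% and DESeq2 12.1%. At such shares, 0 calls among 9 genes does not set these subunits apart from all genes. At an unadjusted p under 0.05, 0 of the 9 passed in edgeR. Itga5, the fibronectin receptor chain, was the most abundant of them, at 24.8, 25.3 and 26.2 CPM in Runx3 +/WRPW and 25.8 and 26.1 CPM in Runx3 +/+ (95% interval of the log2 difference -0.23 to 0.17). Itga10, a collagen receptor chain, stood at 15.4, 10.9 and 11.5 CPM in Runx3 +/WRPW and 18.6 and 13.6 CPM in Runx3 +/+ (log2 difference -0.35). The platelet chain gene Itga2b (3.31 ± 0.24 CPM in Runx3 +/WRPW, SD, n = 3, and 4.57 ± 0.41 CPM in Runx3 +/+, SD, n = 2) and Itga3, a laminin receptor chain (4.92 ± 1.62 and 4.33 ± 0.48 CPM), were low. Itga2, Itga7, Itga9, Itgam and Itgb4 averaged under 2 CPM in both genotypes, with 95% intervals of the log2 difference as wide as -2.54 to 4.23 for Itga9. The highest level of 10 of the 16 subunits was in Runx3 +/WRPW library 2, among them Itgb6, with 1.87 CPM there and 0 counts in the other 4 libraries.

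Genes by which integrins are switched on moved in few cases. Of 31 genes of integrin activation 30 were tested, 2 rose, 3 fell and 25 did not pass (median log2 fold change -0.03, against 0.02 over all genes tested). The 5 called are 16.7% of those tested, near the 13.6% called over all genes. Flna, which encodes filamin A, an actin crosslinker that competes with talin for β tails, stood at 566, 566 and 563 CPM in Runx3 +/WRPW and 1169.5 and 1496 CPM in Runx3 +/+, or 2.36-fold lower (edgeR adjusted p = 0.0022). Rasgrp2, which encodes CalDAG-GEFI, an exchange factor for the integrin-activating GTPase Rap1, stood at 178, 212 and 184 CPM in Runx3 +/WRPW and 446 and 594 CPM in Runx3 +/+, or 2.72-fold lower (edgeR adjusted p = 0.00322). Tln2, a talin gene, stood at 4.41, 4.61 and 2.21 CPM in Runx3 +/WRPW and 0.234 and 0.160 CPM in Runx3 +/+. It had only 5 and 4 counts in the Runx3 +/+ libraries and passed the low-count filter through the Runx3 +/WRPW libraries alone. A difference was thus built into its being tested, and its fold and p are not given, though it is among the 2 that rose and the 5 called. The main talin gene of these cells, Tln1, at 1169.8, 1109 and 1169 CPM in Runx3 +/WRPW and 1238 and 1312 CPM in Runx3 +/+, did not pass. Rap1gap2, which encodes a Rap1 inhibitor, was scarce and uneven, at 0.229, 2.12 and 0.0920 CPM in Runx3 +/WRPW and 2.19 and 10.5 CPM in Runx3 +/+, and did not pass either. Without Runx3 +/WRPW library 2 it was called, but 10 and 2 counts were then left in Runx3 +/WRPW, against 47 and 263 in Runx3 +/+. With all libraries, as in that run, Rap1gap2 passed the low-count filter only because of its level in the Runx3 +/+ libraries. A difference was thus built into its being tested, and its fold and p are not given. Rapgef2, another Rap1 exchange factor gene, was 1.30-fold higher, and Rasgrp1, the fifth called gene, 1.23-fold lower. The calls of Tln2 and Rapgef2 were lost without either Runx3 +/+ library, that of Rapgef2 also without Runx3 +/WRPW library 1, and that of Rasgrp1 with any 1 library left out. Among these genes the number called was 3, 5 and 4 leaving out Runx3 +/WRPW library 1, 2 or 3. In those runs 5.71%, 10.8% and 6.97% of all genes were called. Without either Runx3 +/+ library fewer were called, among these genes as over all genes.

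Of 20 genes that link integrins to the cytoskeleton 17 were tested, 0 rose, 4 fell and 13 did not pass (median log2 fold change -0.07). The 4 are 23.5% of those tested, against 13.6% called and 7.33% called as lower over all genes. Tes, which encodes the focal adhesion protein testin, was 2.02-fold lower, at 94.2 ± 7.6 CPM (SD, n = 3) in Runx3 +/WRPW and 191 ± 34.8 CPM (SD, n = 2) in Runx3 +/+ (edgeR adjusted p = 0.00609). Actn1, the actin crosslinker α-actinin-1, was 1.94-fold lower, at 196 ± 35.5 CPM in Runx3 +/WRPW and 380.1 ± 54.7 CPM in Runx3 +/+ (edgeR adjusted p = 0.0176). The adaptor Nedd9 was 1.37-fold and the focal adhesion gene Zyx, which encodes zyxin, 1.35-fold lower (edgeR adjusted p = 0.0112 and 0.0408). Leaving out Runx3 +/WRPW library 1, 2 or 3 gave 3, 3 and 2 calls, in runs where 5.71%, 10.8% and 6.97% of all genes were called. Without either Runx3 +/+ library calls were fewer, among these genes as over all genes. The call of Tes was lost only without Runx3 +/+ library 2 (adjusted p = 0.0681, edgeR), those of Actn1 and Nedd9 without either Runx3 +/+ library, that of Actn1 also without Runx3 +/WRPW library 3, and that of Zyx with any 1 library left out. Of 12 genes of integrin recycling, Ehd1, an endosomal recycling ATPase, was 2.72-fold lower, at 30.6, 32.3 and 27.0 CPM in Runx3 +/WRPW and 75.7 and 87.4 CPM in Runx3 +/+ (edgeR adjusted p = 0.0014), and the other 11 did not pass (median log2 fold change -0.03). The 1 recycling gene called is 8.33% of the 12 tested, against 13.6% over all genes. The calls of Ehd1, Flna and Rasgrp2 were kept with each library left out in turn.

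Of 15 genes of integrin ligands only 6 were tested, and Cdh1, which encodes E-cadherin, the ligand of αEβ7, was the 1 called. That is 16.7% of those tested, near the 13.6% called over all genes. Cdh1 stood at 53.5, 50.7 and 30.4 CPM in Runx3 +/WRPW libraries 1, 2 and 3, against 14.7 and 16.2 CPM in the Runx3 +/+ libraries, without overlap. It was 2.90-fold higher (log2 fold change 1.54 ± 0.26, SE; edgeR adjusted p = 0.0156), while the gene of its receptor chain αE fell. The call was kept without Runx3 +/WRPW library 2 (log2 fold change 1.44) and lost without Runx3 +/+ library 1 (adjusted p = 0.160, edgeR) or 2 (adjusted p = 0.184, edgeR). Cdh1 is also a marker of thymic epithelium, and the other 5 markers of that list summed to 3.47, 13.8 and 4.0 CPM in Runx3 +/WRPW libraries 1, 2 and 3, against 3.04 and 5.12 CPM in the Runx3 +/+ libraries, so that only Runx3 +/WRPW library 2 was above both. The defining epithelial gene Foxn1 stood at 0.0229, 4.67 and 0.0460 CPM in Runx3 +/WRPW libraries 1, 2 and 3 and had 0 counts in Runx3 +/+, and Krt5 and Krt8 were under 0.4 CPM in every library. The part of epithelial cells in the level of Cdh1 was not tested. Icam1, Icam2, Lamc1, Col1a1 and Tgfb1 did not pass, and MAdCAM-1, VCAM-1 and fibronectin genes were below the filter.

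**Figure D5:**
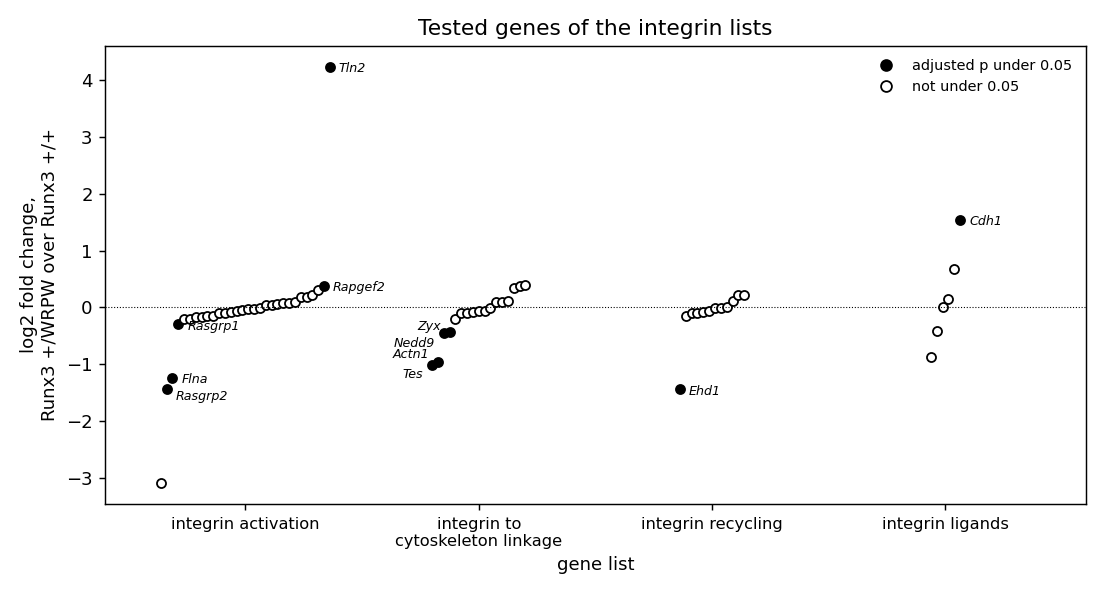
Log2 fold change of Runx3 +/WRPW over Runx3 +/+ for every tested gene of 4 lists: integrin activation (30 genes), linkage to the cytoskeleton (17), recycling (12) and ligands (6). Filled, named points had an adjusted p under 0.05 in edgeR's test. The Tln2 point rests on 5 and 4 counts in Runx3 +/+, and the ligand gene Cdh1 stands at 1.54. The lowest open point is Rap1gap2, which passed the low-count filter only because of its Runx3 +/+ levels.

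Genes beside the 10 chain genes on their chromosomes were read for change that extends over a locus. Annotation placed 31 genes next to or over them, 24 of which had a row and 16 of which were tested. Of these 2 fell and 0 rose, which is 12.5%, near the 13.6% called over all genes. Gsg2, which encodes the mitotic histone kinase haspin, lies within the span of Itgae on the opposite strand, with 0 bases of exon shared in GENCODE M21. It stood at 18.1, 16.1 and 17.1 CPM in Runx3 +/WRPW and 86.3 and 86.4 CPM in Runx3 +/+, or 5.03-fold lower (edgeR adjusted p = 0.000123), in libraries where the markers of dividing cells given above were also lower. The part of dividing cells, or of reads from the overlapping Itgae, in the level of Gsg2 was not tested. The genes on either side of Itgae did not pass: Ncbp3 stood at 78.8, 79.0 and 88.9 CPM in Runx3 +/WRPW and 92.8 and 89.9 CPM in Runx3 +/+, and P2rx5 at 1.06 to 2.68 CPM in Runx3 +/WRPW and 1.49 and 2.28 CPM in Runx3 +/+. Neither did the neighbours of Itgb7, Zfp740 and Rarg, at log2 differences of -0.07 and 0.15. The other call, Ube2e3, 1.84-fold lower (edgeR adjusted p = 0.0134), lies 334133 bases from Itga4. Its call was lost without Runx3 +/+ library 2 or Runx3 +/WRPW library 3, while that of Gsg2 was kept with each library left out in turn.

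Cerkl overlaps Itga4 on the opposite strand with 1124 bases of shared exon, so that reads there could be lost or counted to either gene. It stood at 3.41, 4.55 and 2.94 CPM in Runx3 +/WRPW and 4.11 and 2.52 CPM in Runx3 +/+, far below Itga4 in every library. Pelo, within the span of Itga1, did not pass (14.0 ± 1.6 CPM in Runx3 +/WRPW, SD, n = 3, and 15.4 ± 0.1 CPM in Runx3 +/+, SD, n = 2). Gm17250, which overlaps Itga6, had 3, 36 and 0 counts in Runx3 +/WRPW libraries 1, 2 and 3 and 0 counts in Runx3 +/+, and was not tested.

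The genes nearest in pattern to Itgae and Itgb7 were found by the Euclidean distance between log2 CPM profiles over the 5 libraries, each centred on its mean. For Itgae they were S1pr1 (distance 0.468), Tspan32 (0.597), Ampd1 (0.654), Dusp4 (0.712) and Igfbp4 (0.773), all lower in Runx3 +/WRPW. S1pr1 averaged 24.7 ± 5.7 CPM in Runx3 +/WRPW (SD, n = 3) and 317 ± 57.8 CPM in Runx3 +/+ (SD, n = 2). For Itgb7 they were Gm10638 (0.218), Cd79b (0.229), Cdca5 (0.241), A930005H10Rik (0.264) and Spc25 (0.264). Being chosen for nearness to a pair of genes that fell, they were bound to be lower, and no test is drawn from them.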

How the data were processed

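RNA was measured in 5 libraries of sorted mature CD8 SP thymocytes. Per the labels' protocols, libraries were made from 10 ng of total RNA with an integrity number above 8. The deposited files hold raw counts of reads per gene symbol, which the authors did not normalize. The tools named, per the submitters' processing notes, are featureCounts 2.0.8, HISAT2 2.2.1, cutadapt 4.0 and edgeR 3.36.0, with build mm10. The sources used here do not give the annotation, the strand setting or the handling of multi-mapped reads. A column header carries the number 3 in the file of Runx3 +/+ library 2, and an aligner's name in that of Runx3 +/WRPW library 2, so the sample records decided the assignment.

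The counts were tested by glmQLFit and glmQLFTest (edgeR 4.0.16, R 4.3.3) after filterByExpr at a minimum of 10 counts, with TMM factors between 0.981 and 1.034. SE is the absolute log2 fold change over the square root of F, and 95% intervals use it with the fit's degrees of freedom. DESeq2 1.42.0 and limma 3.58.1 (voom) were alternatives. Per kb levels use the union of GENCODE M21 exons, and coordinates are RefSeq's for GRCm38.p6, the assembly mm10 names. Pair ratios had 0.5 counts added. Tested on simulated data, the fit made more false calls than its threshold allows and missed many changes of 1.5-fold, the smallest simulated, which exceeds the changes of Itgb2 and Itga6. No pair of libraries agreed within sampling noise (smallest chi-square per gene 14.8).

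The 10 genes, the lists and the tests were chosen with earlier results of these data known. Named are the 10 genes, each other integrin subunit tested, up to 4 called genes per list with the smallest p-values, genes with a row that overlap the 10, Runx3, and the 5 genes nearest in pattern to Itgae and to Itgb7. Rasgrp1, Tln1, Rap1gap2, Ube2e3 and the genes flanking Itgae and Itgb7 were named after their values were seen.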

Additional observations from a re-analysis of the deposited data

How the results depend on the processing

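Itgae (log2 -3.96 to -3.67 with 1 library left out) and Itgb7 (-1.97 to -1.74) kept their call under every alternative run. Itga4 ranged from 0.71 to 0.97, Itgb1 from 0.82 to 1.10, Itgb2 from -0.43 to -0.37 and Itga6 from 0.29 to 0.41 with 1 library left out. Calls were lost for Itgb2 with no low-count filter (-0.40) and for Itga6 with RLE factors (0.37) and no low-count filter (0.36). Differences that had not passed changed sign for Itgal (-0.015 to 0.091), Itgav (-0.030 to 0.13) and Itga1 (-0.81 to 0.81; -0.60 in limma-voom), as did the Itga4/Itgb1 ratio (-0.39 to 0.15). Among the other genes the sign turned for Itga2 (0.019 with upper-quartile factors, 0.29 in limma-voom, -0.89 to 2.13 with 1 library left out), Itga3 (-0.12 to 0.31), Itga5 (0.0005 with upper-quartile factors), Itga7 (-0.47 in limma-voom), Itga9 (-1.16 in limma-voom, -1.99 to 1.40), Cerkl (-0.19 to 0.49) and P2rx5 (-0.65 to 0.16), none of them called; the cause was not tested. With 1 library left out, called genes numbered 277 to 1431 (106 to 585 higher, 171 to 846 lower), called chain genes 2 to 5, activation genes 2 to 5, linkage genes 0 to 3, ligand genes 0 to 2 and flanking genes 1 to 2. DESeq2 called 3452 genes (1683 higher, 1769 lower), 3 ligand genes and 4 flanking genes; with no filter 1079 genes were called (442 higher, 637 lower). Without the low-count filter the median log2 fold change of all genes was 0.70, and 0.71 in DESeq2, which tests 28583 genes. Without Runx3 +/+ library 1 or 2 that median was 0.14 and 0.15, with more genes tested, and the lone Runx3 +/+ library is assumed to vary like the other genotype. Itga1 was not tested with the stricter filter (1 CPM), nor Itga7 without Runx3 +/WRPW library 2.

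Replicate numbers are shared between the genotypes for libraries 1 and 2 only, and their deviations had correlations of -0.049 and 0.002. Deviations of 2 Runx3 +/+ libraries from their mean mirror each other, so these correlations cannot decide whether the numbers pair the samples. The numbers were taken as names only. With the replicate number as a block, 754 genes were called (327 higher, 427 lower), 2 linkage genes and 1 flanking gene. Under the block Itgb2 (-0.43) and Itga6 (0.29) lost their call, Itgav stood at -0.0047, Itga2 at 0.99 and P2rx5 at 0.032. Rap1gap2 was called under the block, after the same low-count filter, so its fold is not given.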
